A study of Mus musculus with 6 samples.

Results

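The 9 genes described here are Clca1, Fcgbp, Zg16 and Tff3, whose proteins are secreted into intestinal mucus beside the mucins, together with Agr2, Bcas1 and Capn9, which are expressed in goblet cells, and Spdef and Atoh1, transcription factors of the goblet cell lineage. They were picked by name from the 21534 rows of the deposited count table, with the treatment differences of many genes in these libraries already known, so their treatment values are given as a description. The row of Clca1 carries the older symbol Clca3 in the table, and the table's own Clca1 is the gene now named Clca3a1. Current symbols are used below. All 9 genes passed the filter on low counts, which left 13700 rows for testing.

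The cells were organoids grown from the ileal crypts of wild-type C57Bl/6 mice, that is, three-dimensional cultures of intestinal epithelium. All of them were first kept for 96 hours with 10 μM CHIR99021, a GSK3 inhibitor that activates the Wnt pathway and favours stem cells. They were then given 10 μM retinoic acid (3 libraries) or vehicle/DMSO (3 libraries) for 24 hours, so the vehicle organoids were CHIR99021-treated too. PolyA RNA was sequenced in bulk and counted per gene. Nothing in the labels says whether the libraries came from separate mice or cultures, and a p-value here reflects the variation between the 6 libraries, which may be technical.

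Goblet cells are the mucus-secreting cells of the intestine. They arise, with Paneth and enteroendocrine cells, from progenitors that escape Notch signalling and switch on Atoh1, and Spdef acts after Atoh1 in their maturation. Their secretion is a gel of the mucin Muc2 in which Clca1, Fcgbp, Zg16 and Tff3 are carried, and the gel depends on folding enzymes such as Agr2 in the endoplasmic reticulum. The gel keeps bacteria away from the epithelium. Retinoic acid, the active derivative of vitamin A, acts through nuclear receptors that bind DNA and regulate genes in many epithelia.

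Clca1 rose 7.55-fold with retinoic acid, and none of the other 8 genes passed the test in that direction. Agr2, Spdef, Bcas1 and Capn9 fell to between 0.543 and 0.811 of the vehicle level. Fcgbp, Atoh1, Zg16 and Tff3 did not pass the threshold of an adjusted p of 0.05. Thus 1 of 9 genes was called higher, beside 5.37% of all tested genes, and 4 of 9 were called lower, beside 4.09% of all tested genes. Negative log2 fold changes were found for 7 of the 9 genes, with a median of −0.22 over the 9, and the median over all tested genes was −0.01. As these were bulk libraries, fewer goblet cells, less RNA per goblet cell and changes in other cells cannot be told apart.

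The promoters of the 3 genes that fell and have an entry in the reference's promoter table are shown, since these genes moved in the same direction. Each is 300 bases long, from 250 before to 50 after the annotated start, on the gene's own strand, 5′ to 3′, as given by RefSeq for GRCm38.p6. The table also has entries for Fcgbp and Atoh1, and so matched 5 of the 9 genes. Bcas1, Clca1, Tff3 and Zg16 are named only. The regions are chr12:35992675-35992974 on the plus strand for Agr2, chr17:27728902-27729201 on the minus strand for Spdef and chr8:124575861-124576160 on the plus strand for Capn9. Capitals mark matches to the motifs listed after the sequences.
Agr2: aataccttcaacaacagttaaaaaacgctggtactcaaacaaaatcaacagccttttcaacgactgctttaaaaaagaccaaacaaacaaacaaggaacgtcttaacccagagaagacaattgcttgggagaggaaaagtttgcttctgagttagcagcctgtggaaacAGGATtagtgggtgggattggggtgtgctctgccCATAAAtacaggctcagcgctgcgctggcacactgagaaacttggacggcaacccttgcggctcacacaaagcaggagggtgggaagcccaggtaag
Spdef: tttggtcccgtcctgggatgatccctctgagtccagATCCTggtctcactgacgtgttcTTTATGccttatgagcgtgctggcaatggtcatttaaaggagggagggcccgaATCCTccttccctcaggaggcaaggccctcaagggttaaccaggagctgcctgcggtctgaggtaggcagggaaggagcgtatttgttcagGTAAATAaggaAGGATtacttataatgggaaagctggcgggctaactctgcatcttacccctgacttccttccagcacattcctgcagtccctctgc
Capn9: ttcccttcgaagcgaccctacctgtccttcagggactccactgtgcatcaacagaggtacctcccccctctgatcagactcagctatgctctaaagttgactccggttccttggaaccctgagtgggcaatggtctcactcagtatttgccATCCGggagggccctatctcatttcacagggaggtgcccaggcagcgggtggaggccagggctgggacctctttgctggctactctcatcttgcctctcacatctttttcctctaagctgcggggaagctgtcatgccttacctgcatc

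Short motifs, 8 in all, were searched on both strands of the 5 promoters, and a position is that of the first base of the match as printed, counted from the start site. AGGAT, an ETS-type core that SPDEF is known to prefer over GGAA, stood at −81 in Agr2, at −214, −138 and −36 in Spdef itself and at −106 in Fcgbp, and 41.0% of all 32851 promoters of the same length hold it. CGGAT, the other core of this type, stood at −99 in Capn9 and is held by 16.3% of all promoters. TTTATG, a CDX-type motif, stood at −47 in Agr2 and at −191 in Spdef, against 11.9% of all promoters. The forkhead motif TATTTAC stood at −47 in Spdef (3.04% of all promoters), and TGTTTAC (3.65%) was in none of the 5. The E-box CAGCTG stood at −208 in Fcgbp (16.3%), and CATCTG (17.2%) was in none. AGGTCA, the half-site of nuclear receptors, was in none of the 5 and is held by 16.3% of all promoters. The Atoh1 promoter held none of the 8 motifs and had 20 CpG dinucleotides, against 6 or 7 in each of the other 4. These matches describe letters in a window and were not linked to binding.

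Clca1 is a secreted metalloprotease that cleaves Muc2 and is among the abundant proteins of intestinal mucus. It lies at chr3:145004537-145032776 on the minus strand (mm10, as in the table, ENSMUSG00000028255). Its level was 848, 671 and 830 CPM in the retinoic acid libraries, against 109, 115 and 86.8 CPM in the vehicle libraries, where CPM are counts per 1000000 of the scaled library size. The lowest retinoic acid library thus stood well above the highest vehicle library. The means were 783 ± 97.3 CPM with retinoic acid and 104 ± 14.9 CPM with vehicle (SD, n = 3 each). The log2 fold change was 2.92 with a standard error of 0.11, a 95% interval of 2.69 to 3.15 and an adjusted p of 3.97e-10 in edgeR's quasi-likelihood test. With 1 library left out, the log2 fold change stayed between 2.81 and 3.02 and the call was kept in all 6 repeats. None of the 3770 windows of 50 bases in its transcripts occurs in a transcript of another gene.

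Fcgbp encodes a very large mucus protein built of repeated von Willebrand factor D domains, which binds within the Muc2 network. It lies at chr7:28071236-28120862 on the plus strand (ENSMUSG00000047730). It had 3379, 3497 and 3737 CPM with retinoic acid, against 4190, 3929 and 3802 CPM with vehicle. The groups did not overlap, but the highest retinoic acid library lay close under the lowest vehicle library. The means were 3538 ± 183 CPM with retinoic acid and 3974 ± 197 CPM with vehicle (SD, n = 3 each), a log2 fold change of −0.17 (SE 0.06) with an adjusted p of 0.0788 in edgeR's quasi-likelihood test. With the replicate number as a block the adjusted p was 0.0168, so Fcgbp would be called lower, as 7.68% of all tested genes were in that fit. Its adjusted p was 0.0125 without retinoic acid replicate 3, 0.0483 with upper-quartile scaling and 0.0378 with no filter on low counts. Of its 50-base windows 6.42% are shared with other genes, among them its paralog 9530053A07Rik, which had 2.65 CPM with retinoic acid and 2.13 CPM with vehicle.

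Zg16, a small lectin-like protein that binds the cell wall of Gram-positive bacteria, lies at chr7:127050156-127051977 on the minus strand (ENSMUSG00000049350). Its level was 27.0, 25.4 and 25.0 CPM in the retinoic acid libraries, against 31.8, 25.5 and 23.4 CPM in the vehicle libraries. The groups overlapped, and the vehicle libraries held both the highest and the lowest value. Its log2 fold change was −0.06, with a 95% interval of −0.30 to 0.18 and an adjusted p of 0.812 in edgeR's quasi-likelihood test, and it was 0.08 without vehicle replicate 1.

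Tff3 encodes the intestinal trefoil peptide, which aids the closure of epithelial wounds, and lies at chr17:31125306-31129646 on the minus strand (ENSMUSG00000024029). It had 469, 428 and 487 CPM with retinoic acid, against 469, 454 and 399 CPM with vehicle. The ranges of the groups overlapped. Its log2 fold change was 0.07, with a 95% interval of −0.08 to 0.22 and an adjusted p of 0.655 in edgeR's quasi-likelihood test. The intervals of Zg16 and Tff3 leave room for changes of up to about 0.3 on the log2 scale, so they do not show that the levels were equal.

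**Figure D1:**
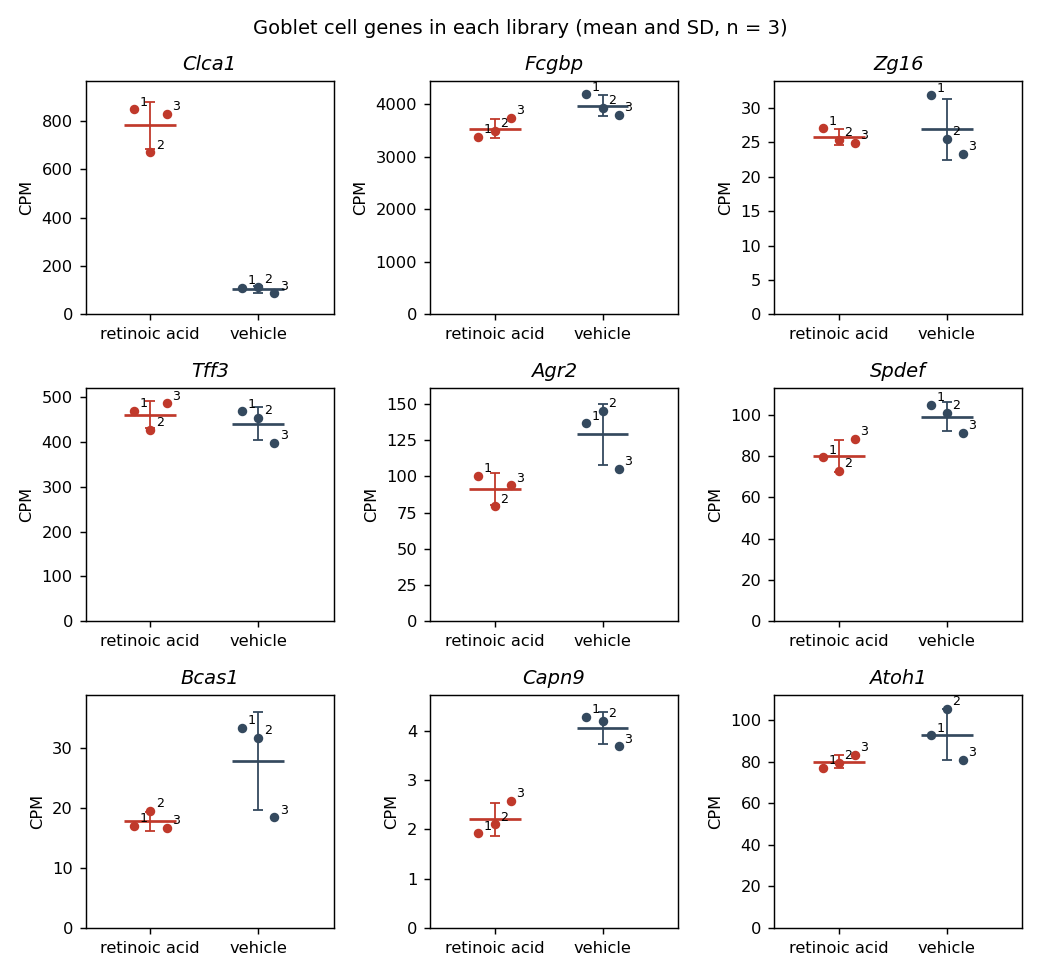
Level of each of the 9 genes in CPM (vertical axes, each from 0) in the 3 retinoic acid libraries (red) and the 3 vehicle libraries (dark blue), with points numbered by replicate and a bar and whiskers for the mean and SD. Clca1 had 671 to 848 CPM with retinoic acid and 86.8 to 115 CPM with vehicle, while for Tff3 and Zg16 the groups overlapped.

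Agr2 is a protein disulfide isomerase of the endoplasmic reticulum that is needed for Muc2 production in mice. It lies at chr12:35992907-36004087 on the plus strand (ENSMUSG00000020581). It had 101, 79.2 and 93.9 CPM with retinoic acid, against 137, 145 and 105 CPM with vehicle. Every retinoic acid library was below every vehicle library, and vehicle replicate 3 stood nearest to the retinoic acid libraries. The means were 91.2 ± 10.9 CPM with retinoic acid and 129 ± 20.9 CPM with vehicle (SD, n = 3 each). The log2 fold change was −0.50 (SE 0.11), 0.708 of the vehicle level, with an adjusted p of 0.00896 in edgeR's quasi-likelihood test. It did not pass without vehicle replicate 1 (adjusted p 0.0537) or vehicle replicate 2 (0.0678).

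Bcas1, best known as a gene of myelin-forming oligodendrocytes, is also a transcript of intestinal goblet cells and lies at chr2:170346991-170427845 on the minus strand (ENSMUSG00000013523). It had 17.1, 19.5 and 16.7 CPM with retinoic acid, against 33.5, 31.8 and 18.5 CPM with vehicle. The groups overlapped, since vehicle replicate 3 lay below retinoic acid replicate 2, while the other vehicle libraries were well above all 3 retinoic acid libraries. Its log2 fold change was −0.66 (SE 0.17), with an adjusted p of 0.0254 in edgeR's quasi-likelihood test, and it was −0.88 without vehicle replicate 3. The call was lost without retinoic acid replicate 1 (adjusted p 0.0923), vehicle replicate 1 (0.142) or vehicle replicate 2 (0.130). Of its 50-base windows 8.98% are shared with its antisense gene Bcas1os1, which had 3.97 CPM with retinoic acid and 5.59 CPM with vehicle (adjusted p 0.278). Whether counting used strand is not given in the sources used here, so reads from the shared stretch cannot be told apart.

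Capn9 encodes a calpain, a calcium-dependent cysteine protease, of the digestive tract and lies at chr8:124576111-124618731 on the plus strand (ENSMUSG00000031981). It had the fewest reads of the 9 genes, with 1.92, 2.10 and 2.58 CPM in the retinoic acid libraries (41, 31 and 51 reads), against 4.28, 4.20 and 3.69 CPM in the vehicle libraries (74, 71 and 56 reads). The groups did not overlap. The log2 fold change was −0.88 (SE 0.23; 95% interval −1.38 to −0.39), with an adjusted p of 0.0266 in edgeR's quasi-likelihood test. The call was lost without retinoic acid replicate 1 (adjusted p 0.123), retinoic acid replicate 2 (0.0738), vehicle replicate 1 (0.0971) or vehicle replicate 2 (0.0839). In the authors' deposited table the FDR of Capn9 is 0.0744, so it is not called there.

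Atoh1 is the basic helix-loop-helix factor that opens the secretory fate, and in mice without it the intestine lacks goblet, Paneth and enteroendocrine cells. It lies at chr6:64729146-64731233 on the plus strand (ENSMUSG00000073043). It had 77.1, 79.6 and 83.5 CPM with retinoic acid, against 92.7, 106 and 81.1 CPM with vehicle. The groups overlapped by the lowest vehicle library, replicate 3. The means were 80.1 ± 3.26 CPM with retinoic acid and 93.1 ± 12.3 CPM with vehicle (SD, n = 3 each), and the log2 fold change was −0.22 (SE 0.09) with an adjusted p of 0.143 in edgeR's quasi-likelihood test. Without vehicle replicate 3 the adjusted p was 0.0297, with a log2 fold change of −0.31.

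Spdef is an ETS-family factor needed in mice for the maturation of goblet and Paneth cells. It lies at chr17:27714352-27728951 on the minus strand (ENSMUSG00000024215). It had 79.4, 73.0 and 88.4 CPM with retinoic acid, against 105, 101 and 91.2 CPM with vehicle. The groups did not overlap, and the gap between retinoic acid replicate 3 and vehicle replicate 3 was small. The log2 fold change was −0.30 (SE 0.08; 95% interval −0.47 to −0.13), with an adjusted p of 0.0279 in edgeR's quasi-likelihood test. The call was lost without retinoic acid replicate 1 (adjusted p 0.111), retinoic acid replicate 2 (0.130), vehicle replicate 1 (0.129) or vehicle replicate 2 (0.110).

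Every retinoic acid library was below every vehicle library for 4 of the 9 genes (Agr2, Spdef, Capn9 and Fcgbp), and the same was true of 12.6% of all tested genes. With 1 library left out, the number of the 9 genes called lower varied, and so did the share of all tested genes called lower. It was 1 without retinoic acid replicate 1 (2.07% of all tested genes), 2 without retinoic acid replicate 2 (3.01%) and 5 without retinoic acid replicate 3 (5.65%). Leaving out vehicle replicate 1 gave 0 of the 9 (2.55% of all tested genes), vehicle replicate 2 also 0 (2.49%) and vehicle replicate 3 gave 5 (3.29%). All 6 repeats kept the sign of the change of the 4 genes called lower. In the authors' deposited table, at an FDR under 0.05, 1 of the 9 genes is higher (Clca1, log2 fold change 2.92), beside 3.32% of all rows, and 3 are lower (Agr2, Bcas1 and Spdef), beside 2.13% of all rows.

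**Figure D2:**
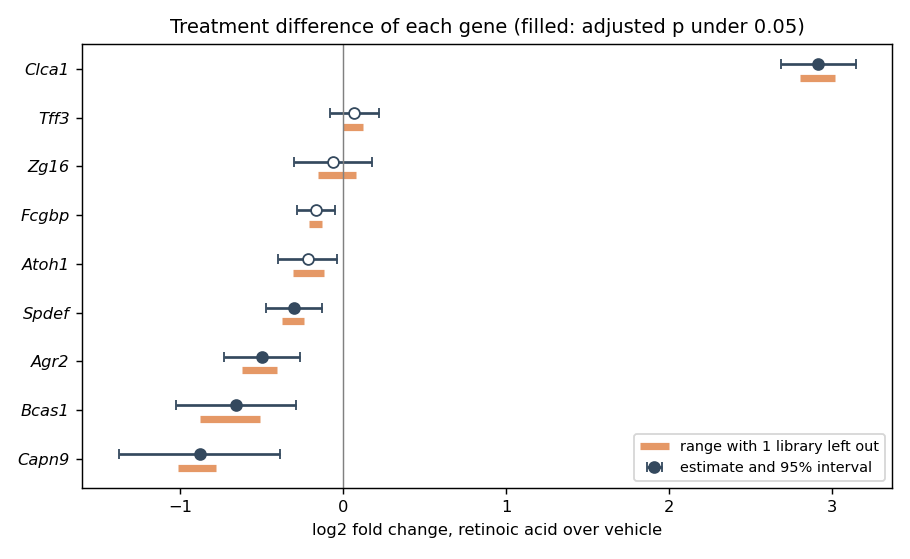
Log2 fold change of retinoic acid over vehicle (horizontal axis) for each gene (rows), as points with 95% intervals, filled where the adjusted p was under 0.05, and the range over 6 fits that each leave out 1 library (orange). Clca1 stands alone at 2.92, the other genes lie between −0.88 and 0.07, and the range of Zg16 crosses 0.

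Levels were compared between genes as CPM per kb of coding sequence, since longer transcripts give more reads. In vehicle organoids Tff3 was highest, with 1812 ± 152 CPM per kb (SD, n = 3), followed by Fcgbp with 513 ± 25.5 and Agr2 with 246 ± 39.9 CPM per kb. The factors Spdef, with 102 ± 7.23 CPM per kb, and Atoh1, with 88.4 ± 11.6 CPM per kb, came next, and they were the only neighbours in the order whose vehicle libraries overlapped. Below them were Zg16 with 53.7 ± 8.80, Clca1 with 37.8 ± 5.43, Bcas1 with 14.7 ± 4.32 and Capn9 with 1.96 ± 0.156 CPM per kb. So Clca1 was the seventh of the 9 genes per coding length in vehicle organoids. Per kb of all exons it was the sixth, with 27.4 ± 3.94 CPM per kb, above Zg16 with 21.4 ± 3.51, and Atoh1, with 43.9 ± 5.78, stood above Spdef, with 43.0 ± 3.06 CPM per kb (SD, n = 3 each). The orders of Clca1 and Zg16 and of Atoh1 and Spdef thus depend on the length used. With retinoic acid it had 286 CPM per kb and was the third, above Agr2 with 174 CPM per kb, while Tff3 (1898) and Fcgbp (457) stayed above it. Spdef (82.3), Atoh1 (76.0), Zg16 (51.5), Bcas1 (9.37) and Capn9 (1.06 CPM per kb) kept their order among themselves.

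**Figure D3:**
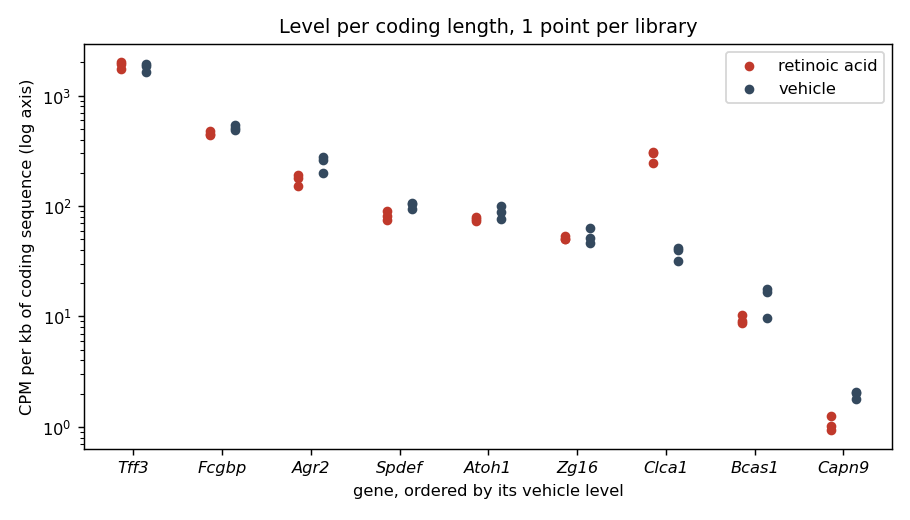
CPM per kb of coding sequence on a log axis for the 9 genes, ordered by their vehicle level, with 1 point for each retinoic acid library (red, left) and each vehicle library (dark blue, right). In vehicle organoids the means run from 1812 CPM per kb for Tff3 to 1.96 for Capn9, and with retinoic acid Clca1 stands at 286 CPM per kb, above Agr2.

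The make-up of the reads from these genes therefore differed between the groups. Clca1 gave 17.0%, 13.8% and 15.5% of the reads of the 9 genes with retinoic acid, against 2.11%, 2.34% and 1.88% with vehicle. Fcgbp gave 67.6%, 71.7% and 69.7% with retinoic acid, against 81.0%, 80.0% and 82.5% with vehicle. The share of Clca1 was larger in every retinoic acid library, and the Fcgbp share is of a sum that includes Clca1. Of the reads of the other 8 genes, Fcgbp gave 81.4%, 83.2% and 82.4% with retinoic acid, against 82.8%, 81.9% and 84.0% with vehicle, which overlap. Tff3 gave 9.38%, 8.77% and 9.08% with retinoic acid and 9.06%, 9.23% and 8.65% with vehicle, which overlap.

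Set against other goblet cell products, there were 25.1, 19.2 and 22.2 Clca1 reads per 100 Fcgbp reads with retinoic acid, against 2.60, 2.93 and 2.28 with vehicle. For each Agr2 read there were 8.44, 8.47 and 8.84 Clca1 reads with retinoic acid, against 0.799, 0.793 and 0.824 with vehicle. For each read of Muc2, the gel-forming mucin, there were 8.42, 6.68 and 6.22 Clca1 reads with retinoic acid and 0.789, 0.799 and 0.736 with vehicle. The ratios to Agr2 varied little within a group, and both genes were lowest in the same libraries, retinoic acid replicate 2 and vehicle replicate 3. The 9 genes together held 4999, 4874 and 5364 CPM with retinoic acid, against 5171, 4911 and 4611 CPM with vehicle, and these sums overlap. Without Clca1 the other 8 genes summed to 4151, 4203 and 4534 CPM with retinoic acid and to 5062, 4796 and 4524 CPM with vehicle. Here retinoic acid replicate 3 lay just above vehicle replicate 3, and most of the sum is Fcgbp. Without Clca1 and Fcgbp the remaining 7 genes summed to 772, 706 and 797 CPM with retinoic acid and to 872, 867 and 722 CPM with vehicle, where vehicle replicate 3 lay below retinoic acid replicates 1 and 3.

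One library moved with several of these results. Vehicle replicate 3 was the lowest vehicle library for 9 of the 9 genes and for 22 of 30 other goblet cell genes (73.3%), and it was lowest for 35.9% of all tested genes. It was also the lowest for 15 of 17 enteroendocrine genes (88.2%), and for 8 of 15 Paneth cell, 7 of 22 secretory fate and 2 of 17 absorptive genes. Its level was below the mean of the other vehicle libraries by 43.3% for Bcas1, 25.2% for Agr2, 22.5% for Clca1 and 6.34% for Fcgbp, with the other 5 genes between 11.4% and 18.6% below. It thus lay on the retinoic acid side for the genes that fell and on the far side for Clca1. Among the retinoic acid libraries no such order was seen, since the lowest library was replicate 1 for 3 genes, replicate 2 for 4 and replicate 3 for 2. The part of this library in the results was measured by leaving it out, and without it 1 of the 9 genes was called higher and 5 lower.

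**Figure D4:**
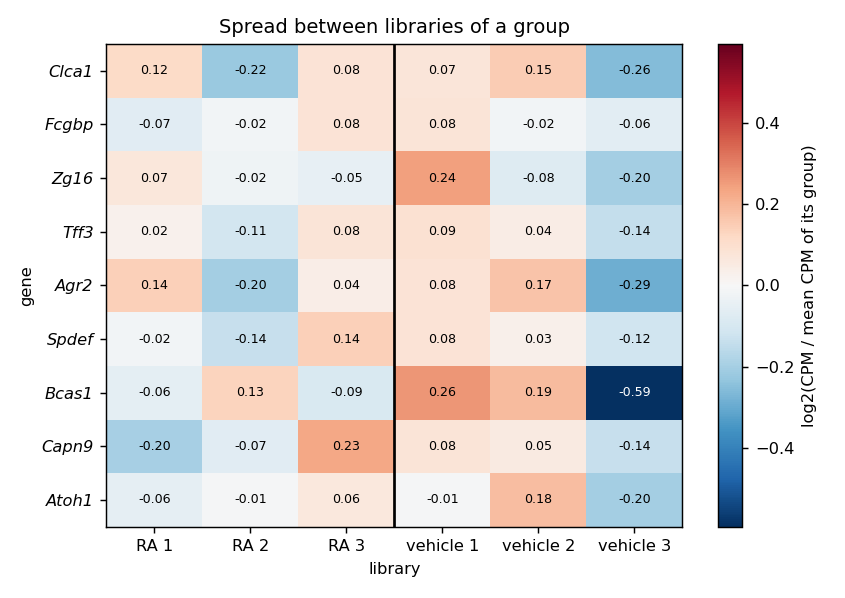
Log2 of the CPM in a library over the mean CPM of its group for the 9 genes (rows) in the retinoic acid libraries (RA 1 to 3, left) and the vehicle libraries (right). The column of vehicle replicate 3 is negative for all 9 genes, down to −0.59 for Bcas1.

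Clca1 belongs to a cluster of related genes on chromosome 3, all on the minus strand, and no other tested gene of the cluster was called higher. Clca4a, whose start lies 57.7 kb from that of Clca1, had 10.7, 10.2 and 6.77 CPM with retinoic acid, against 17.3, 19.2 and 12.6 CPM with vehicle. It fell, with a log2 fold change of −0.84 (SE 0.18) and an adjusted p of 0.00896 in edgeR's quasi-likelihood test, which was 0.0640 without vehicle replicate 2. Clca4b, at 100.2 kb, had 139 ± 9.77 CPM with retinoic acid and 130 ± 6.73 CPM with vehicle (SD, n = 3 each; log2 fold change 0.09, adjusted p 0.510 in edgeR's quasi-likelihood test). Clca3b, at 183.4 kb, had 131 ± 5.43 CPM with retinoic acid and 144 ± 16.1 CPM with vehicle (log2 fold change −0.13, adjusted p 0.371 in the same test of n = 3 each). Neither passed the test, although both had over 100 CPM in every library.

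Clca3a1 had 1.60 CPM with retinoic acid and 1.29 CPM with vehicle, and Clca3a2 had 1.63 CPM with retinoic acid and 1.00 CPM with vehicle, with adjusted p of 0.671 and 0.330. Clca2, on the other side of Clca1, had 15, 4 and 7 reads with retinoic acid and 0, 4 and 2 reads with vehicle and was too low to be tested. Reads of some of these relatives are uncertain, since 41.0% of the 50-base windows of Clca4a, 24.8% of those of Clca4b, 26.8% of those of Clca3a1 and 26.9% of those of Clca3a2 occur in another gene's transcripts, and 6.69% of those of Clca3b do.

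**Figure D5:**
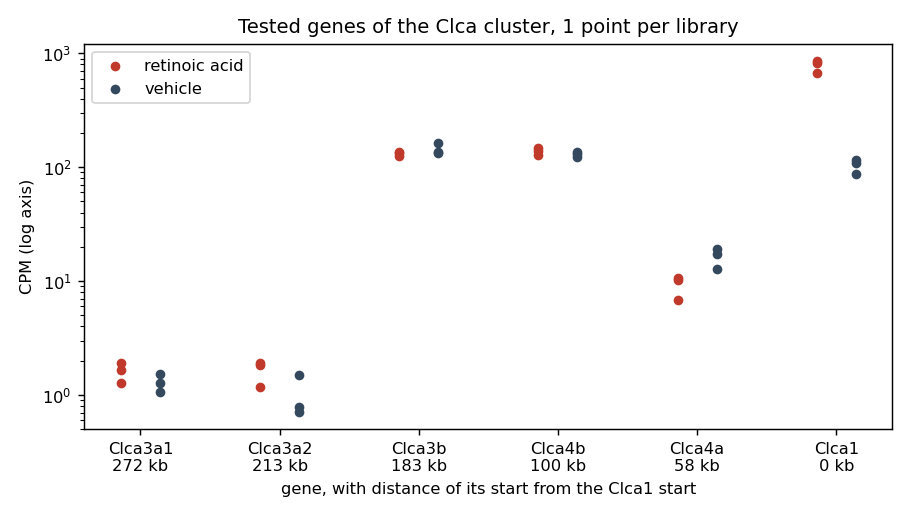
CPM on a log axis in each library for the tested genes of the Clca cluster, ordered by the distance of their start from the Clca1 start in kb, with retinoic acid libraries in red at the left and vehicle libraries in dark blue at the right of each pair. Clca1 had 671 to 848 CPM with retinoic acid and 86.8 to 115 CPM with vehicle, and Clca4a was the one other gene of the cluster that passed the test, in the lower direction.

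Other relatives of the 9 genes gave a mixed picture. Of 21 relatives, 16 were tested, 2 were called higher (Elf3, an ETS factor, and Capn5, a calpain with 316 ± 13.0 CPM with retinoic acid and 251 ± 11.9 CPM with vehicle) and 2 lower (Clca4a and the ETS factor Ehf). Over all tested genes 5.37% were called higher and 4.09% lower. The median log2 fold change of the 16 was 0.07. Ehf had a log2 fold change of −0.26 and an adjusted p of 0.0384, which did not pass in 4 of the 6 fits with 1 library left out (without retinoic acid replicate 1 or 2, or vehicle replicate 1 or 3; up to 0.170). The gastric trefoil genes were near absent, with 8, 4 and 3 Tff1 reads and 1, 2 and 5 Tff2 reads with retinoic acid, against 4, 2 and 3 Tff1 reads and 6, 1 and 4 Tff2 reads with vehicle. Agr3, the paralog of Agr2, had 0, 0 and 6 reads with retinoic acid and 3, 7 and 2 reads with vehicle.

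Among 32 other goblet cell genes, 30 were tested and their median log2 fold change was −0.13. Of these, 2 were called higher and 1 lower, beside 5.37% and 4.09% of all tested genes. Qsox1, a sulfhydryl oxidase of the secretory pathway, rose to 418 ± 26.5 CPM with retinoic acid, against 335 ± 26.9 CPM with vehicle (SD, n = 3 each; adjusted p 0.00815 in edgeR's quasi-likelihood test). Its call was kept with any 1 library left out, with an adjusted p in that test of up to 0.0486. Bace2, an aspartic protease, rose by a log2 fold change of 0.36 (adjusted p 0.0397), and this call was lost in 5 of 6 fits with 1 library left out, the exception being retinoic acid replicate 3 (adjusted p up to 0.202). Tpsg1, a membrane-bound tryptase, fell by 0.40 on the log2 scale (adjusted p 0.0254), which was lost without retinoic acid replicate 1 (0.103), vehicle replicate 1 (0.117) or vehicle replicate 2 (0.129). With the replicate number as a block, 4 of these genes were called higher and 5 lower, beside 1224 and 1052 of all 13700 tested genes. Leaving out 1 library gave 1 to 4 called higher and 0 to 4 called lower, with the most in both directions without retinoic acid replicate 3. That fit also had the most calls over all tested genes, 978 higher and 787 lower.

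Several defining goblet cell genes did not pass the test. Muc2 had 101, 100 and 133 CPM with retinoic acid, against 138, 144 and 118 CPM with vehicle (log2 fold change −0.26, adjusted p 0.161 in edgeR's quasi-likelihood test). Replicate 3 of each group stood on the other group's side, and the adjusted p of Muc2 was 0.00116 without retinoic acid replicate 3 and 0.00987 with no filter on low counts. Creb3l1, a membrane-bound transcription factor of secretory cells, had 75.3 ± 6.08 CPM with retinoic acid and 89.7 ± 7.64 CPM with vehicle (SD, n = 3 each), with an adjusted p of 0.0633 in edgeR's quasi-likelihood test, 0.00455 with the block, 0.0484 with upper-quartile scaling, 0.0218 with no filter and 0.0256 without vehicle replicate 3. Spink4, a protease inhibitor of goblet cells, had 31.1 ± 3.88 CPM with retinoic acid and 38.7 ± 7.04 CPM with vehicle (n = 3 each), with an adjusted p of 0.146 in edgeR's quasi-likelihood test, 0.00865 with the block, 0.0200 with no filter and 0.0202 without vehicle replicate 3. Foxa3, a forkhead factor, had 97.4 CPM with retinoic acid and 109 CPM with vehicle (adjusted p 0.211), and Klf4, a zinc-finger factor of goblet cell differentiation, had 189 CPM with retinoic acid and 198 CPM with vehicle (adjusted p 0.559). Retnlb, an antibacterial goblet cell product, had 2, 0 and 0 reads with retinoic acid and 1, 0 and 0 reads with vehicle and was not tested.

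Around Atoh1, 22 genes linked to the secretory fate were tested, with a median log2 fold change of −0.19. Of them 8 were called lower, beside 4.09% of all tested genes, and 1 higher, beside 5.37%. The list mixes genes of this fate with Notch1 and Hes1, which act against it, so its counts give no single direction. Notch1, a receptor that holds progenitors out of the secretory fate, fell to 18.1, 20.3 and 22.8 CPM with retinoic acid, against 28.5, 30.5 and 36.8 CPM with vehicle (log2 fold change −0.64, adjusted p 0.00259 in edgeR's quasi-likelihood test). The groups did not overlap, and the call was kept in all 6 fits with 1 library left out. The Notch ligand Dll1, which secretory precursors display, fell to 12.1, 11.0 and 17.0 CPM with retinoic acid, against 20.0, 20.0 and 21.6 CPM with vehicle (log2 fold change −0.61, adjusted p 0.0146). That call was lost without retinoic acid replicate 1 (adjusted p 0.0801) or replicate 2 (0.0616) or without vehicle replicate 2 (0.0522). Another ligand, Jag1, fell by 0.30 on the log2 scale (adjusted p 0.0119), lost without retinoic acid replicate 1 (0.0961) or vehicle replicate 1 (0.0510).

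Insm1, a zinc-finger factor of enteroendocrine cells, fell to 19.7 ± 0.914 CPM with retinoic acid, against 27.6 ± 1.75 CPM with vehicle (SD, n = 3 each; adjusted p 0.00407 in edgeR's quasi-likelihood test), in all 6 fits with 1 library left out too. Cdx1 (−0.35), Neurog3 (−0.40), Hes6 (−0.24) and Sox4 (−0.20, all log2 fold changes) were also called lower, with adjusted p in such fits up to 0.125, 0.108, 0.197 and 0.195. Neurog3 lost its call in all 6 of them, and Cdx1, Hes6 and Sox4 lost theirs without retinoic acid replicate 1 or 2 or vehicle replicate 2 or 3. The number of fate genes called lower varied with 1 library left out, as did the share of all tested genes, given in brackets. It was 2 without retinoic acid replicate 1 (2.07%), 3 without retinoic acid replicate 2 (3.01%) and 7 without retinoic acid replicate 3 (5.65%). Leaving out vehicle replicate 1 gave 6 (2.55%), vehicle replicate 2 gave 3 (2.49%) and vehicle replicate 3 gave 4 (3.29%). Elf3, an ETS factor of epithelial differentiation, was the one that rose, to 1181 ± 67.8 CPM with retinoic acid, against 751 ± 40.9 CPM with vehicle (n = 3 each; log2 fold change 0.65, adjusted p 7.43e-06 in edgeR's quasi-likelihood test). Hes1, the repressor of Atoh1 that Notch signalling switches on, had 92.0 ± 5.89 CPM with retinoic acid and 87.1 ± 6.57 CPM with vehicle (n = 3 each; adjusted p 0.613 in edgeR's quasi-likelihood test), and Gfi1, a factor of goblet and Paneth cells, had 8.76 CPM with retinoic acid and 9.88 CPM with vehicle (adjusted p 0.566).

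The 5 genes whose profile over the 6 libraries was nearest to that of Clca1, by the distance of log2 CPM centred on each gene's mean, were Slc51a (distance 0.483), Fgf15 (0.619), Fmo5 (0.707), Dmbt1 (0.792) and Acacb (0.810). Slc51a is a subunit of the basolateral bile acid exporter and Fgf15 the hormone by which the ileum signals bile acid supply to the liver. Fmo5 is a flavin-containing monooxygenase, Dmbt1 a secreted scavenger receptor of mucosal surfaces and Acacb an acetyl-CoA carboxylase. Slc51a had 28.8 ± 3.39 CPM with retinoic acid and 4.47 ± 1.01 CPM with vehicle, and Fgf15 had 3213 ± 259 CPM with retinoic acid and 568 ± 12.2 CPM with vehicle (SD, n = 3 each). The log2 fold changes of the 5 genes, in the order above, were 2.69, 2.50, 2.98, 2.37 and 2.95. The choice follows the treatment difference of Clca1, so it is a description, and it depends on the measure. By Pearson correlation over the 6 libraries the 5 nearest were Stap2, Ang, Ms4a8a, Plac8 and Eci2, and 0 of the 5 genes above were among them.

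Markers of other cell types were measured in the same libraries, and their part in the results was not tested. Beside the counts called below, 5.37% of all tested genes were called higher and 4.09% lower, and 7.68% were called lower with the block. The libraries held 14919100 to 21833800 reads. The labels call the cells intestinal stem cells, and all 10 stem and cycling markers were detected, summing to 1228 to 1320.0 CPM with retinoic acid and 1961 to 2041 CPM with vehicle. Slc12a2 was the largest part of both sums, with means of 551 CPM with retinoic acid and 974 CPM with vehicle. Of these 10, 7 fell, among them Slc12a2, Mcm6, Smoc2 and Olfm4 (log2 fold changes −0.82, −0.70, −0.63 and −1.67). Axin2, Ascl2 and Pcna were not called (log2 fold changes −0.17, −0.07 and −0.03). Paneth cell markers summed to 5833 to 6104 CPM with retinoic acid and 6587 to 7029 CPM with vehicle. Of 15 tested, 5 were called lower (Cd24a, Ang4, Mptx1, Nupr1 and Habp2) and Mmp7 higher, while Lyz1 had 3382 ± 161 CPM with retinoic acid and 3789 ± 146 CPM with vehicle (n = 3 each; adjusted p 0.0720 in edgeR's quasi-likelihood test, 0.00600 with the block, 0.0206 without retinoic acid replicate 3, and 0.0458 to 0.0487 with upper-quartile scaling, no filter, DESeq2 or limma-voom). Without retinoic acid replicate 1, vehicle replicate 1 or vehicle replicate 3, 3 of the 15 were called lower. The shares of all tested genes in these fits were 2.07%, 2.55% and 3.29%.

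Enteroendocrine markers summed to 1015 to 1249 CPM with retinoic acid and 943 to 1319 CPM with vehicle, with Pyy and Sst higher among 17 tested and Chga not called (adjusted p 0.695). The replicate block added 2 called lower, and Sst lost its call without retinoic acid replicate 1 (0.196), vehicle replicate 2 (0.165) or vehicle replicate 3 (0.143). Tuft markers summed to 21.9 to 26.2 CPM with retinoic acid and 22.0 to 29.0 CPM with vehicle, with Ptgs1 lower among 9 tested and Dclk1 not called (adjusted p 0.385). Absorptive markers summed to 2100.2 to 2676 CPM with retinoic acid and 2370 to 2544 CPM with vehicle. Of 17 tested, Fabp1, Mttp and Fabp2 rose and Apob and Alpi fell, and with the block 6 were higher and 5 lower. Without retinoic acid replicate 3 there were 7 lower, beside 5.65% of all tested genes. Non-epithelial markers summed to 49.5 to 60.0 CPM with retinoic acid and 57.6 to 72.2 CPM with vehicle, which overlap. Kit was the largest part of these sums, with means of 30.3 CPM with retinoic acid and 40.9 CPM with vehicle. Whether the Kit reads came from non-epithelial cells was not tested, so the sums are no measure of such cells. Only 8 of 18 were high enough to test, Cd68 was called higher and Kit lower, each lost without vehicle replicate 1 or 2, and Cd68 also without retinoic acid replicate 1 or 2. The highest of the 18 were Kit, with 455 to 703 reads with retinoic acid and 527 to 770 with vehicle, Lyve1, with 135 to 204 reads with retinoic acid and 103 to 177 with vehicle, and Cd68, with 112 to 169 reads with retinoic acid and 68 to 73 with vehicle. Pdgfrb, Tubb3, Pecam1 and Vim had 8 to 82 reads in a library and the 10 untested genes 0 to 19, among them the immune marker Ptprc and the collagen gene Col3a1 with at most 2. No gene of these lists was at 0 in all libraries.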

How the data were processed

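Directional polyA libraries were sequenced from 3 retinoic acid and 3 vehicle organoid samples, and the build was mm10, per the submitters' processing notes. Which aligner, annotation, multi-mapping rule and strand setting were used is not given in the sources used here. Raw counts per gene in 6 libraries were deposited, per the file headers. The table also gives the authors' p-value and FDR and the authors' log2 fold changes, plain and shrunken, from DESeq, which were used only where the authors' table is named.

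The count model was fitted in edgeR 4.0.16 under R 4.3.3 (filterByExpr, TMM factors 0.978 to 1.023, glmQLFit and glmQLFTest with treatment as the only term, two-sided, Benjamini-Hochberg over 13700 of 21534 rows, threshold 0.05). At least 99.89% of the reads of every library were in the kept rows, and the biological coefficient of variation was 7.81%. The standard error is the log2 fold change over the square root of F, and intervals are at 95%. Sample titles gave the groups, and column names matched them. Replicates differed beyond counting noise (chi-square per row 3.43 to 8.60), so no file holds 1 library deposited again, and this does not show that they came from separate cultures. Same-numbered libraries deviated together (r = 0.154, 0.121 and 0.324 for numbers 1, 2 and 3, over 12969 genes averaging 1 CPM or more). Between numbers 1 and 2 the values were not far from these. They were 0.087 for retinoic acid 2 with vehicle 1 and 0.080 for retinoic acid 1 with vehicle 2. Pairs of number 3 with another number had r of −0.206 to −0.169. Because deviations were taken from each group's own mean, the positive value for number 3 forces these pairs towards negative values. They are therefore no separate evidence. The value of 0.324 sets number 3 apart, and numbers 1 and 2 are hardly separated. No label states a pairing, and fits with the number as a block were run too. The steps were run on simulated counts of independent libraries to check the code, which is no support for the calls above.

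Coding length is the longest coding sequence of a gene in GENCODE M21. Gene IDs of 21102 rows were found in the table of gene names. Lists of goblet, secretory fate, family relative and other cell type genes, and the 9 genes themselves, were chosen with earlier results of these data known. Named genes are the 9, the called genes with the smallest p of each list (up to 4 a direction, 10 for the goblet, fate and family lists), a set of markers named whatever their values, the Clca cluster and the 5 profiles nearest to Clca1. Habp2, the non-epithelial genes named beside Kit and Cd68, the Pearson neighbours of Clca1, Bcas1os1 and 9530053A07Rik were added after their values were seen. One non-epithelial gene is not reported here. Alternatives were other scalings and filters, the block, DESeq2 1.42.0, limma-voom (limma 3.58.1) and each library left out.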

Additional observations from a re-analysis of the deposited data

How the results depend on the processing

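The treatment differences were recomputed with DESeq2 size factors, upper-quartile scaling, no filter on low counts, a filter of at least 10 counts, the replicate block, a DESeq2 Wald test, limma-voom and each library left out in turn. Clca1 was called higher in every one of these fits. With the replicate block 1224 of all tested genes were called higher and 1052 lower, against 736 and 560 without it, and Fcgbp was called lower (log2 fold change −0.17). The block changed the call of no other of the 9 genes. Fcgbp was also called with upper-quartile scaling (−0.19) and with no filter (−0.16). Over all tested genes the calls shifted in these 2 fits too. With no filter they rose above 736 higher and above 560 lower. With upper-quartile scaling they fell below 736 higher and rose above 560 lower. The list counts that follow are therefore not specific to the lists. The other goblet cell genes called higher numbered 1 with upper-quartile scaling, 4 with no filter and 4 with the block, and those called lower 2, 5 and 5 in the same order. Enteroendocrine genes called higher numbered 1 with upper-quartile scaling, and those called lower 1 with no filter and 2 with the block. Absorptive genes called higher numbered 6 with no filter and 6 with the block, and those called lower 6 and 5. The cause was not tested.

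Leaving out 1 library gave 443 to 978 genes called higher and 289 to 787 called lower, with the fewest without retinoic acid replicate 1 and the most without retinoic acid replicate 3 (without vehicle replicate 1 there were 477 and 355, and without vehicle replicate 2 there were 346 called lower), and 1 to 1 higher and 0 to 5 lower of the 9 genes. Their log2 fold changes ran from −0.62 to −0.40 for Agr2, −0.88 to −0.51 for Bcas1, −1.02 to −0.78 for Capn9, −0.38 to −0.24 for Spdef, −0.21 to −0.13 for Fcgbp, −0.31 to −0.12 for Atoh1 and −0.15 to 0.076 for Zg16, whose sign turned without vehicle replicate 1. Chga turned to 0.050 without vehicle replicate 2. Counts higher and lower ran from 1 to 4 and 0 to 4 (other goblet), 1 to 1 and 2 to 7 (fate), 2 to 3 and 1 to 2 (relatives), 1 to 1 and 3 to 6 (Paneth), 1 to 2 and 0 to 1 (enteroendocrine), 3 to 4 and 2 to 7 (absorptive) and 0 to 1 and 0 to 1 (non-epithelial). Exon length in place of coding length, an alternative chosen after seeing the data, kept 5 of 9 ranks, and leaving out 1 vehicle library kept 9. By Pearson correlation 0 of the 5 genes nearest to Clca1 were kept. Depth limits Capn9 and the relatives with under about 2 CPM.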
